A study of Mus musculus with 4 samples.

Results

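Hair keratins and keratin-associated proteins are the building material of the hair follicle's hardening layers. Their transcripts were counted here in the epidermis of mice bred to delete the calcium sensors STIM1 and STIM2 in keratin 14-expressing epithelium. The members are the protein-coding rows of the deposited count table with a name that starts with Krtap, plus the named keratins of the inner root sheath (Krt25 to Krt28 and Krt71 to Krt73) and of the hair shaft (Krt31, Krt32, Krt33a, Krt33b, Krt34 to Krt36, Krt81 to Krt84 and Krt86). The rule uses names and gene type only, but it was set with earlier results of these data known. They are 76 of the 56493 genes listed, made up of 7 inner root sheath keratins, 12 shaft keratins and 57 Krtap genes. Krt85 is not analysed here.

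Double-knockout mice, called cKO, gave 2 libraries. In them a Cre recombinase under the keratin 14 promoter removes floxed Stim1 and Stim2. The 2 control libraries came from Stim1/2fl/fl mice. Both groups carry the floxed alleles, and the labels name no Cre for the controls. All 4 libraries came from shaved dorsal skin, and sodium thiocyanate was used to lift the epidermis off the dermis. The age, sex and strain of the mice, and whether a library is 1 mouse or a pool, are not given in the sources used here, so that p-values measure only the spread between these libraries. The keratin 14 promoter is active in the basal layer of the epidermis and in the outer root sheath of the follicle.

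In a growing follicle, matrix cells at its base divide and move up into concentric layers. The inner root sheath forms a rigid sleeve of its own keratins and of trichohyalin, and the shaft inside it is built from type I and type II hair keratins that pair into filaments. Keratin-associated proteins then fill the space between these filaments and cross-link them. One group of them is rich in cysteine and another is rich in glycine and tyrosine. Dorsal mouse skin runs through the hair cycle in waves, and hair keratins are made in its growth phase. The stage of the cycle is not given in the sources used here. In bulk samples of this kind, fewer cells of a type and less RNA per cell cannot be told apart.

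The genes lie in a few clusters. In the deposited table, whose build the submitters' processing notes name as GRCm39, 23 Krtap genes lie on chromosome 11 between 99440956 and 99884820, beside the 11 type I keratins of the rule. A further 24 Krtap genes lie on chromosome 16 between 88407593 and 89368071. The 8 type II keratins lie on chromosome 15 between 101356942 and 101710781, and the other Krtap genes are on chromosomes 7 (5 genes), 10 (3 genes) and 1 (2 genes). Of the 57 Krtap genes, 51 have a single exon in the table, whereas the keratins have 7 to 11 exon entries each.

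Promoters of 65 of the 76 members were found by symbol in the RefSeq table of build GRCm38.p6, each with 250 bases before and 50 bases after the gene's start. These genes share a feature that the rule did not use, the letters TATAAA of the TATA box, which positions the transcription machinery at sharply starting promoters. On either strand, TATAAA was present in 54 of the 65 member promoters (83.1%) and in 13.6% of the 32851 promoters of the table. On the gene's own strand and starting 40 to 20 bases before the start, it was present in 39 of 65 member promoters (60.0%) and in 1.99% of all promoters. CTTTGA, the core that LEF1 and TCF factors of the Wnt pathway bind, was present on either strand in 20 member promoters (30.8%) and in 5257 of the 32851. TTTACG, a core bound by posterior Hox proteins, was present in 2 (3.08%) and in 3.03% of all. Each motif was counted on its own, whether or not it overlapped another. Members of a family share ancestry and are not independent. A match is a description of the letters only.

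The promoters of 5 members that carry most of the tests below are shown, 5′ to 3′ on the gene's strand, with TATAAA and CTTTGA on either strand in capitals. They are Krtap3-2 (chr11:99556804-99557103, minus strand), Krtap3-1 (chr11:99566581-99566880, minus strand), Krtap8-1 (chr16:89487903-89488202, minus strand), Krtap19-3 (chr16:88877989-88878288, minus strand) and Krt84 (chr15:101532771-101533070, minus strand), all in GRCm38.p6 from RefSeq.
Krtap3-2: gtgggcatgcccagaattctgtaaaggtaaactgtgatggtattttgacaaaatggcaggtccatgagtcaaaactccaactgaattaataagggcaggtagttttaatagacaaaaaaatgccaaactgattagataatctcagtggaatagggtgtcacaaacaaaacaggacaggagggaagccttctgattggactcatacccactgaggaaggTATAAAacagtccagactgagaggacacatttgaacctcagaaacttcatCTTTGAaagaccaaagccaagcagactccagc
Krtap3-1: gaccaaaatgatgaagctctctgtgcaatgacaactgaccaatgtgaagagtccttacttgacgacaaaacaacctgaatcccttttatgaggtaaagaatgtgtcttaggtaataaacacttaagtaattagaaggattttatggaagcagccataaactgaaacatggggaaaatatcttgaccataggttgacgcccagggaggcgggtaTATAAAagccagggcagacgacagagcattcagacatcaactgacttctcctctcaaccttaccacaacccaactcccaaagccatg
Krtap8-1: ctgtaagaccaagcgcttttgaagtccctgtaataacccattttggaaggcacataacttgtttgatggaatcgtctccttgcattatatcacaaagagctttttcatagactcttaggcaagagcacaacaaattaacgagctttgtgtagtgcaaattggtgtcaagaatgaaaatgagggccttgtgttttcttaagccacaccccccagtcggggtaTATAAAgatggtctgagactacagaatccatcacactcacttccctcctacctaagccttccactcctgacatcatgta
Krtap19-3: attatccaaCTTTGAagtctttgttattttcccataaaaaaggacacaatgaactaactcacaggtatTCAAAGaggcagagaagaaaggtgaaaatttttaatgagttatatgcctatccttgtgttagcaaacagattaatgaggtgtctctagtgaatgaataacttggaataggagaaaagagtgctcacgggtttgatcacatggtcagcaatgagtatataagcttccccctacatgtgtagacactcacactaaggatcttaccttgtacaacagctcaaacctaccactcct
Krt84: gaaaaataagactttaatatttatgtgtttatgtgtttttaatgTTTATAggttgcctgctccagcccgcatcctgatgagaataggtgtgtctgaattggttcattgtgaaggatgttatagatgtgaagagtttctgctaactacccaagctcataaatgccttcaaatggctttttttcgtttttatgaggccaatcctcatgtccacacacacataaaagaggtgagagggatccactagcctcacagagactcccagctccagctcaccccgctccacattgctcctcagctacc

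TATAAA starts 32 bases before the start in Krtap3-2, 37 bases before it in Krtap3-1 and 29 bases before it in Krtap8-1. The Krtap19-3 window holds no TATAAA and 2 copies of CTTTGA. The Krt84 window holds TATAAA only on the opposite strand, far from the start.

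The libraries were shallow, with totals from 118858 (cKO replicate 2) to 322426 counts (control replicate 2), a 2.71-fold range. Levels are given as CPM, a gene's counts relative to the library's size, where that size is the sum over the 4243 genes that passed the count filter, adjusted by TMM. A count of 0 allows up to 3 counts, which is 9.58 CPM in control replicate 2 and 33.7 CPM in cKO replicate 2, and such limits cover counting error only. Stim1 gave 23 and 6 counts (cKO) and 24 and 62 counts (control), and Stim2 had 0 and 1 against 3 and 18. Each cKO value of both genes, as CPM, lay below each control value. Stim1 did not pass the test (log2 fold change -0.98, standard error 0.52, edgeR adjusted p 0.671), and Stim2 fell under the count filter. Across all genes tested, the median log2 fold change was 0.01.

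Transcripts of the hair keratins were close to the limit of detection in both genotypes. The 76 members together took 107 and 96 counts in cKO replicates 1 and 2 and 185 and 395 counts in control replicates 1 and 2, 783 in all. Of the members, 54 had at least 1 count in any library, 22 had 0 in all 4, 23 reached 10 counts summed over the libraries and 31 had 1 to 9. The shaft keratins Krt31, Krt33a, Krt33b, Krt35, Krt81 and Krt82 were at 0 counts in every library, as were Krt27 and Krt73 of the inner root sheath. The other 6 shaft keratins had from 2 (Krt34) to 60 counts (Krt84) summed over the libraries. A count of 0 allows a level up to the limits above, which cover counting error only. Multi-mapping settings are not given, so reads shared with a near-identical copy could be dropped at any level. Copies were searched only for members with 10 or more counts, so 0 counts here do not show absence. Krt10, a keratin of the suprabasal epidermis, gave 794 and 132 counts (cKO) and 302 and 1162 counts (control), as the tissue label implies.

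Summed over their members, the inner root sheath keratins gave 4 and 6 counts (cKO) and 13 and 11 counts (control). As shares of the library these were 0.00142% (95% Wilson interval 0.000551% to 0.00365%) and 0.00505% (0.00231% to 0.0110%) in cKO, and 0.00649% (0.00379% to 0.0111%) and 0.00341% (0.00191% to 0.00611%) in control. The cKO replicate 2 value lay between the control values, so the groups overlapped. The normalised mean was 41.8 ± 36.3 CPM in cKO and 52.3 ± 24.2 CPM in control (SD, n = 2), and the log2 ratio, -0.32, did not exceed the replicate spread. Its sign depended on single libraries and on 1 gene. It was 0.39 without Krt72, 0.37 when cKO replicate 1 was left out and -1.69 when cKO replicate 2 was. Leaving out a control gave 0.25 (replicate 1) or -0.73 (replicate 2).

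Shaft keratins summed to 16 and 7 counts (cKO) and 11 and 57 counts (control). Their shares were 0.00567% (Wilson interval 0.00349% to 0.00921%) and 0.00589% (0.00285% to 0.0122%) in cKO, and 0.00549% (0.00307% to 0.00984%) and 0.0177% (0.0137% to 0.0229%) in control. Control replicate 2 stood alone, and the other 3 libraries lay within each other's intervals. The means were 71.7 ± 9.88 CPM in cKO and 120.4 ± 87.2 CPM in control (SD, n = 2). The log2 ratio of -0.75 was 0.29 when control replicate 2 was left out, and -1.34 when control replicate 1 was.

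Krtap genes summed to 87 and 83 counts (cKO) and 161 and 327 counts (control). In cKO their shares were 0.0308% (Wilson interval 0.0250% to 0.0380%) and 0.0698% (0.0563% to 0.0866%). The controls had 0.0804% (0.0689% to 0.0938%) and 0.101% (0.0910% to 0.113%). Here cKO replicate 1 was the library that stood apart, although by share both cKO libraries lay below both controls. The TMM factor was 0.833 in cKO replicate 2, and 1.076 and 1.12 in the controls, so that this separation depended on the scaling. After scaling, cKO replicate 2 at 932.8 CPM lay between the controls at 859.1 and 1044 CPM, while cKO replicate 1 was at 351.8 CPM. The means were 642.3 ± 410.8 CPM in cKO and 951.6 ± 130.7 CPM in control (SD, n = 2), a log2 ratio of -0.57. The log2 ratio was -1.44 without cKO replicate 2 and -0.03 without cKO replicate 1, so that the size of the ratio turned on which cKO library was kept. With library totals in place of TMM it was -0.89, and that scaling moved the median of all tested genes by -0.24. Sums over members were given no p-value.

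**Figure D1:**
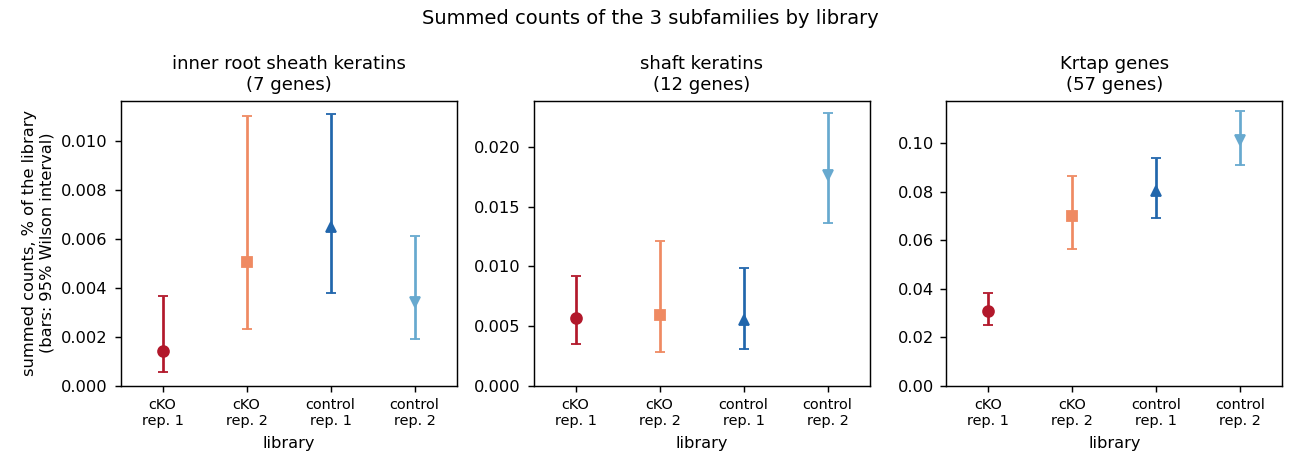
Summed counts of the inner root sheath keratins, shaft keratins and Krtap genes as a percentage of all counts of each library (vertical axis, a separate scale in each panel) for the 4 libraries (horizontal axis). Bars are 95% Wilson intervals and cover counting error only. The inner root sheath panel overlaps between genotypes, control replicate 2 stands above the rest in the shaft panel, and cKO replicate 1 stands below the rest in the Krtap panel.

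Of the 76 members, 6 passed the count filter, 5 Krtap genes and Krt84, and 0 of them passed the test at an adjusted p under 0.05 (edgeR quasi-likelihood test). Over all genes tested, 0.848% were called in either direction and 0.189% were called lower. At an unadjusted p under 0.05 edgeR had 1 of the 6 members, against 8.39% of all genes tested, or 4.17% on the lower side, where this member (Krtap3-2) lay. DESeq2 and limma-voom also called 0 members, with 0 and 3 at an unadjusted p under 0.05. All 6 fitted log2 fold changes were negative, with a median of -1.14, where 49.6% of all tested genes were negative. In 2 of the 6 both cKO values lay below both control values, which 19.6% of all genes tested showed. A gene with few cKO counts can pass this filter through its control counts, so these 6 do not stand for the other 70.

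Krtap3-2 (ENSMUSG00000069721, chromosome 11, 99446649 to 99447679, minus strand), a cysteine-rich keratin-associated protein, was the member with the most counts. It gave 32 and 6 counts (cKO) and 37 and 85 counts (control), or 129.4 and 67.4 CPM against 197.4 and 271.4 CPM. Both cKO libraries were below both controls. The means were 98.4 ± 43.8 CPM and 234.4 ± 52.3 CPM (SD, n = 2), and the log2 fold change was -1.17 (standard error 0.49). The edgeR adjusted p was 0.502 and the unadjusted p was 0.0332. Over the alternatives the fold change of Krtap3-2 stayed negative, from -1.84 without cKO replicate 1 to -0.86 without cKO replicate 2, with adjusted p from 0.173 to 0.9997.

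Krtap3-1, its neighbour at 99456853 to 99457456, gave 4 and 7 counts (cKO) and 10 and 27 counts (control), or 16.2 and 78.7 CPM against 53.4 and 86.2 CPM. Here cKO replicate 2 lay between the controls, and the log2 fold change of -0.84 (standard error 0.83, edgeR adjusted p 0.902) became 0.10 without cKO replicate 1. Krtap3-3 (99440956 to 99441691) gave 1 and 7 counts (cKO) and 5 and 11 counts (control), and its highest value, 78.7 CPM, was in cKO replicate 2. Krtap3-2 and Krtap3-3 transcripts are 98.7% identical over 373 bases in GENCODE M21, so reads may have been split or lost between them. The 3 Krtap3 genes summed to 149.6 and 224.8 CPM in cKO and 277.5 and 392.8 CPM in control, which do not overlap, with a log2 ratio of -0.84. Without Krtap3-2 that ratio was -0.18.

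Among the glycine-tyrosine-rich members on chromosome 16, Krtap8-1 (ENSMUSG00000059632, 89284267 to 89284840) gave 3 per cKO library and 9 and 24 per control library, or 12.1 and 33.7 CPM against 48.03 and 76.6 CPM. The groups did not overlap. At this depth the cKO level is at the limit of detection, so its change is given as a ratio of summed counts, 0.271 with an exact 95% interval of 0.0927 to 0.654 for counting error only. The edgeR adjusted p was 0.706. Krtap19-3 (ENSMUSG00000060469, 88674401 to 88674926) gave 6 per cKO library and 24 and 19 per control library. As CPM the order was 24.3 and 67.4 in cKO and 128.1 and 60.7 in control, so that the groups overlapped, with a log2 fold change of -1.19 (standard error 0.75, edgeR adjusted p 0.758). Leaving out a library moved the Krtap19-3 fold change to -0.49 (cKO replicate 1), -1.89 (cKO replicate 2), -0.55 (control replicate 1) or -1.61 (control replicate 2). Krtap6-1 (ENSMUSG00000058172, 88828587 to 88829180) gave 0 and 8 counts (cKO) and 6 and 15 counts (control). Its 89.9 CPM in cKO replicate 2 was above both controls (32.02 and 47.9 CPM), and its log2 fold change of -0.24 (standard error 1.25, adjusted p 0.996) was 1.08 without cKO replicate 1.

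Krt84 (ENSMUSG00000044294, chromosome 15, 101433461 to 101441255), a type II hair keratin, was the only keratin of the rule to pass the filter. It gave 6 per cKO library and 7 and 41 per control library, or 24.3 and 67.4 CPM against 37.4 and 130.9 CPM. The groups overlapped. Its log2 fold change of -1.10 (standard error 0.80, edgeR adjusted p 0.820) became 0.20 without control replicate 2. Krt84 therefore shows the same single high library as the shaft keratin sum, to which it gave 41 of the 57 counts of control replicate 2.

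The remaining 17 members with 10 or more counts had no test, because they fell under the filter. Krt36, a type I hair keratin, gave 1 and 0 counts (cKO) and 2 and 9 counts (control), and Krt32, a type I keratin of the hair cuticle, had 4 and 0 against 2 and 4. Krt72, a keratin of the inner root sheath, gave 1 and 0 counts (cKO) and 7 and 2 counts (control), and it gave 7 of the 13 inner root sheath counts of control replicate 1. Krtap17-1 and Krtap2-4 gave 0 per cKO library and 3 and 8, and 2 and 8, per control library. As ratios of summed counts both are at 0, with exact 95% upper limits of 0.593 for Krtap17-1 and 0.664 for Krtap2-4 that cover counting error only. The Krtap2-4 transcript is 96.2% to 99.0% identical to Gm11562, Gm11938 and Gm11937, genes outside the members. Its reads may therefore have been split or lost.

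Several glycine-tyrosine-rich genes were highest in cKO replicate 2. Krtap21-1 gave 3 and 16 counts (cKO) and 7 and 5 counts (control), which is 179.8 CPM in cKO replicate 2 and 12.1 CPM in cKO replicate 1. Krtap6-2 had 1 and 10 against 7 and 9, and Krtap6-3 had 2 and 7 against 6 and 7. Of these, Krtap21-1 and Krtap6-2 are 92.8% identical over 249 bases. Krtap6-5, whose transcript is 97.3% identical to Krtap6-1 over 264 bases, did not share this order, with 2 and 1 counts (cKO) and 13 and 5 counts (control). Krtap6-1 and Krtap6-5 are also 97.8% to 98.4% identical to Gm10228 and Gm10229, which are outside the members. Reads of the Krtap6 family may therefore have been split or lost. Without cKO replicate 1, Krtap21-1 passed the filter and was called higher in cKO (log2 fold change 2.77, standard error 0.82, edgeR adjusted p 0.0438, where 0.66% of all genes are called higher with all 4 libraries), the only member called in any alternative. That fit has 1 cKO library and assumes that it varies like the controls. Krtap21-1 passed the filter there through the 16 counts of this same library, which favours a higher value. The call is therefore no separate support for a difference between genotypes.

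For the other members of at least 10 counts the values were scattered. Krtap22-2 gave 3 per cKO library and 5 and 13 per control library. Krtap19-2 had 4 and 0 against 2 and 15, Krtap19-5 had 0 and 3 against 0 and 10, and Krtap19-9b had 7 and 0 against 6 and 4. Krtap14 gave 1 per cKO library and 0 and 13 per control library, and Krtap15, which overlaps it on the opposite strand, had 6 and 0 against 7 and 1. The use of strand in counting is not given in the sources used here, so reads of this pair cannot be told apart. Krtap16-3 had 5 and 0 against 2 and 3. Over all 23 members with 10 or more counts, both cKO values lay below both control values in 7, above them in 0, and the groups overlapped in 16. The 7 were Krtap3-2, Krtap8-1, Krtap6-5, Krtap17-1, Krtap2-4, Krt36 and Krt72, of which all but Krtap3-2 had at most 3 counts in either cKO library. Among the genes tested this separation occurred in 19.6%, but only 2 of the 7 were tested.

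**Figure D2:**
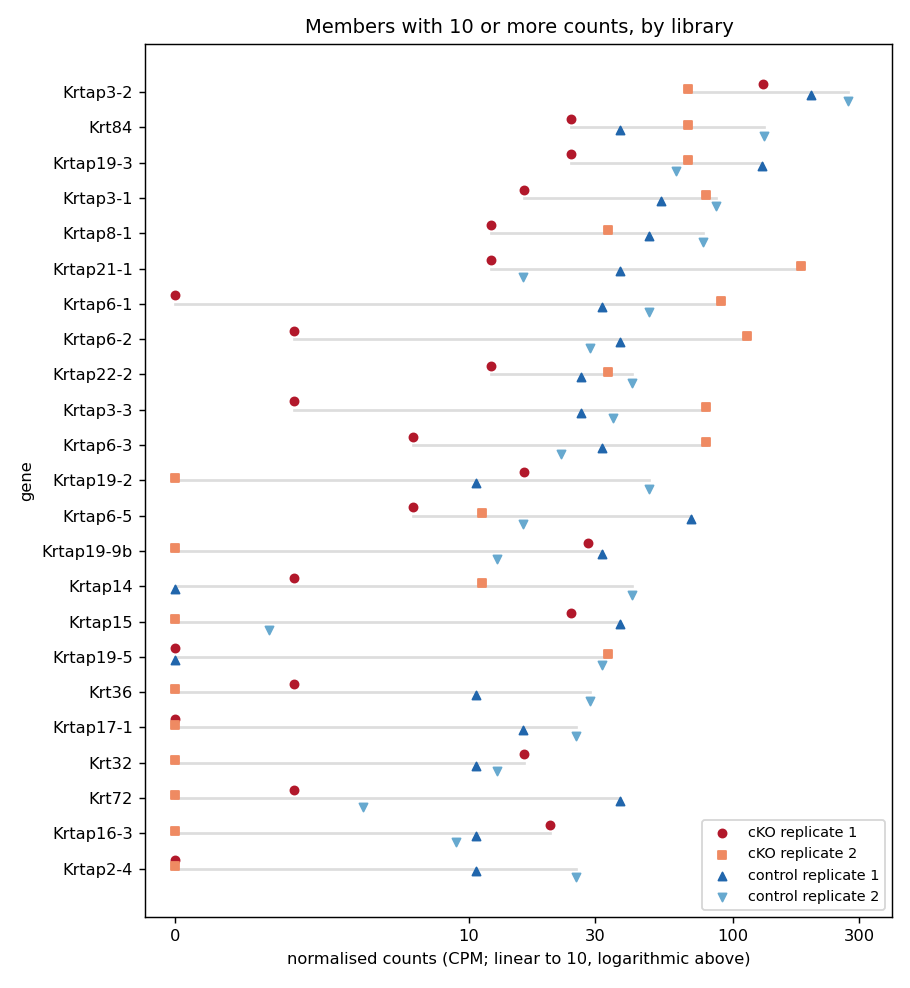
Normalised counts (CPM, horizontal axis, linear up to 10 and logarithmic above) of the 23 members with 10 or more counts, 1 row per gene, with 1 symbol per library and a line from the lowest to the highest. In most rows the cKO and control symbols are mixed, and cKO replicate 2 holds the highest value in 6 rows, among them Krtap21-1 and Krtap6-2.

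The order of the libraries differed between classes of Krtap genes, a difference that was not tested. The genes were divided by family name into cysteine-rich (35 genes) and glycine-tyrosine-rich (15 genes), with 7 left unassigned, a division made after the counts had been seen and so given with no test. The cysteine-rich genes summed to 49 and 24 counts (cKO) and 72 and 189 counts (control), or 198.1 and 269.7 CPM against 384.2 and 603.6 CPM. Both cKO libraries were below both controls, at means of 233.9 ± 50.6 CPM and 493.9 ± 155.1 CPM (SD, n = 2). Their log2 ratio was -1.08, with values from -1.37 to -0.72 when 1 library was left out, and -0.94 without Krtap3-2. The separation rested on that gene, which gave 129.4 and 67.4 CPM in cKO and 197.4 and 271.4 CPM in control. Without Krtap3-2 the sum of cKO replicate 2 lay above that of control replicate 1, so that the groups overlapped.

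The glycine-tyrosine-rich genes summed to 33 and 59 counts (cKO) and 86 and 132 counts (control), or 133.4 and 663.1 CPM against 458.9 and 421.5 CPM. The 2 cKO libraries lay on either side of the controls, 4.97-fold apart, while the ratio of control replicate 2 to control replicate 1 was 0.919. The log2 ratio of -0.14 was 0.59 without cKO replicate 1 and -1.72 without cKO replicate 2. Of the 11 genes of this class with 10 or more counts, 9 were higher in cKO replicate 2 than in cKO replicate 1. The same order held for 3 of the 7 cysteine-rich genes and 13 of all 23 members with 10 or more counts. A share over all genes is not given here. The gap between the cKO libraries was wide in the Krtap6 family, with 20.2 and 292.2 CPM in cKO and 170.8 and 115.0 CPM in control. In the Krtap19 family both cKO libraries were below both controls, with 76.8 and 112.4 CPM in cKO and 170.8 and 169.3 CPM in control.

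Divided by position instead, the Krtap genes of chromosome 11 summed to 161.7 and 258.5 CPM in cKO and 336.2 and 533.3 CPM in control, which do not overlap. Those of chromosome 16 summed to 182.0 and 674.3 CPM in cKO and 506.9 and 482.2 CPM in control, which do. Without Krtap3-2 the chromosome 11 sums overlapped too, with cKO replicate 2 above control replicate 1. All of the glycine-tyrosine-rich genes are on chromosome 16, so class and position cannot be told apart for most of these counts.

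**Figure D3:**
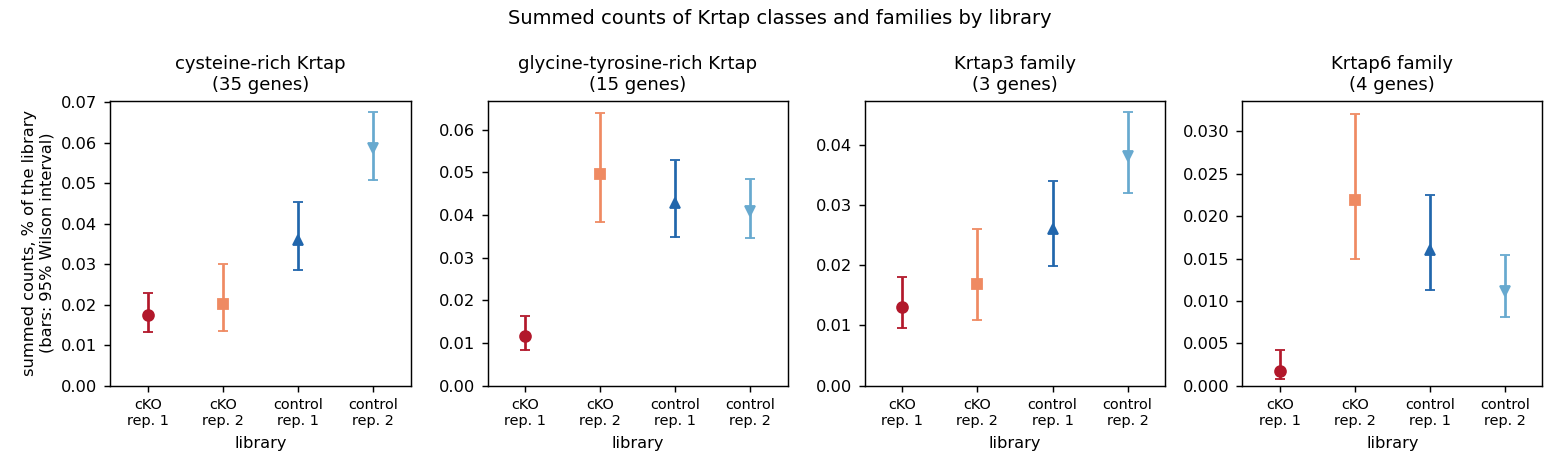
Summed counts of the cysteine-rich and glycine-tyrosine-rich Krtap genes and of the Krtap3 and Krtap6 families as a percentage of all counts of each library (vertical axis, separate scales) for the 4 libraries, with 95% Wilson intervals. The cKO libraries are both low in the cysteine-rich and Krtap3 panels, whereas in the glycine-tyrosine-rich and Krtap6 panels cKO replicate 1 is low and cKO replicate 2 is level with or above the controls.

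Markers of other cells also differed between the 2 cKO libraries. A list of 13 genes of fibroblasts and the dermal papilla, the connective tissue knot at the base of the follicle, summed to 60.7 and 786.7 CPM in cKO and 314.8 and 175.6 CPM in control. Its member Col3a1 gave 3 and 26 counts (cKO) and 7 and 17 counts (control). In the same list 4 genes (Pdgfra, Corin, Crabp1 and Wif1) had 0 counts in every library. Rspo3 had 0 per cKO library and 4 and 5 per control library. The sum therefore does not tell the dermal papilla from other fibroblasts. A list of 12 melanocyte genes summed to 145.6 and 449.5 CPM in cKO and 341.5 and 102.2 CPM in control, nearly all from Dct with 33 and 36 counts against 61 and 26. The defining melanocyte genes Tyr, Tyrp1, Pmel and Mlana had at most 2 counts in any library. A list of 13 skeletal muscle genes summed to 44.5 and 134.9 CPM in cKO and 1526 and 1070 CPM in control. Of its 7 tested genes 4 were called lower (0.189% of all genes tested). In 6 of the 7 both cKO libraries held at most 3 counts. Such genes passed the count filter through their control counts, which favours a lower value, so these calls are no separate support. The value of cKO replicate 2 was above that of cKO replicate 1 in these 3 lists, as in the glycine-tyrosine-rich genes, but also in the cysteine-rich genes, both keratin subfamilies and the structural and proliferation lists below. It was the lower of the pair in the regulator (1067 and 550.7 CPM), outer root sheath and interfollicular keratin (4173 and 1899 CPM) lists. The muscle order rests on 11 and 12 counts. The part of these cells in the Krtap values was not tested.

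Other structural genes of the follicle, from a list of 16 written with earlier results of these data known, had more counts than the members. Most of these counts came from Prr9, Tchh and Tchhl1, and 5 of the 16 genes had 0 counts in every library. Psors1c2 was higher in cKO, with 3 and 4 counts against 2 and 1. The sum therefore describes mainly Prr9, Tchh and Tchhl1. The list summed to 901.7 and 1259 CPM in cKO and 4765 and 4263 CPM in control, a log2 ratio of -2.06 that ran from -2.32 to -1.84 when 1 library was left out. Of its 6 tested genes, 1 was called lower (0.189% of all genes tested), 0 were called higher and 6 had a negative fold change (49.6% of all), with a median of -2.20, or -2.03 with Crisp1 at its bound. In 5 of the 6 both cKO values lay below both controls, as in 19.6% of all genes tested.

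Tchhl1, an S100-fused relative of trichohyalin, was the gene called. It gave 43 and 13 counts (cKO) and 158 and 258 counts (control), or -2.36 on the log2 scale (standard error 0.44, edgeR adjusted p 0.0219). Both cKO libraries lay far below both controls. Prr9 gave 56 and 58 counts (cKO) and 417 and 565 counts (control), with a log2 fold change of -2.24 (standard error 0.53, adjusted p 0.0799), and its fold change ranged from -3.14 (cKO replicate 2 left out) to -1.67 (cKO replicate 1 left out). Trichohyalin itself (Tchh), the cross-linked matrix protein of the inner root sheath and medulla, was at -1.91 (standard error 0.43, adjusted p 0.0677). Tchh was called lower with library totals (0.0317), no count filter (0.0105), a 10 CPM minimum (0.0333), DESeq2 (0.00748), limma-voom (0.0368) and the newer glmQLFit default (0.0449), and it was not called in any fit that left out a library (0.0640 to 0.214). Prr9 was called lower with library totals (0.0177), no count filter (0.000565), a 10 CPM minimum (0.0159), DESeq2 (0.00495), limma-voom (0.0368), without cKO replicate 2 (0.00164) and without control replicate 2 (0.0142). Crisp1 gave 1 and 0 counts (cKO) and 14 and 20 counts (control), a ratio of summed counts of 0.0438 with an exact 95% interval of 0.00108 to 0.261 for counting error, and its adjusted p was 0.177.

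Krt75, a keratin of the companion layer between the inner and outer root sheaths, gave 42 and 18 counts (cKO) and 81 and 312 counts (control). Its log2 fold change was -1.96 (standard error 0.50, edgeR adjusted p 0.120) and became -1.21 without control replicate 2 (adjusted p 0.905). It was called lower without control replicate 1 (-2.43, adjusted p 0.0130), with library totals (0.0469) and with no count filter (0.0115). Of the other hair keratins outside the rule, Krt39 and Krt40 were at 0 counts and Krt74 and Krt87 had 1 and 3 counts in all.

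Regulators of hair differentiation were sparse. Of 24 listed genes 7 were tested, with 4 negative and 3 positive fold changes, 0 calls at an adjusted p and 0 at an unadjusted p under 0.05 (edgeR), and a median of -0.11. Ovol1 was at -1.19 (adjusted p 0.716) and Prdm1 at 1.05 (adjusted p 0.799). Gata3, a transcription factor of the inner root sheath, gave 44 and 8 counts (cKO) and 41 and 80 counts (control) (log2 fold change -0.75, adjusted p 0.764). Hoxc13, which is known to activate hair keratin genes, had 6 and 1 counts against 6 and 5. Foxn1, the factor lacking in nude mice, had 3 and 1 against 2 and 13, and Lef1 had 0 and 0 against 3 and 0. These counts are too few to give a direction.

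The outer root sheath and bulge list, which holds keratins shared with the basal epidermis, summed to 10360 and 9047 CPM in cKO and 8927 and 9098 CPM in control. Of its 17 genes 7 were tested. A negative fold change was found in 2 and a positive one in 5, where 49.6% of all tested genes were negative. The test called 1 higher (0.66% of all genes tested) and 0 lower (0.189%). Both cKO libraries lay above both controls in 4 of the 7 and below them in 2, where 18.9% and 19.6% of all tested genes did so. Krt79 was at 1.89 (standard error 0.42, edgeR adjusted p 0.0677). Krt17 was at -1.39 (standard error 0.43, edgeR adjusted p 0.264) and Krt15 at -1.06 (standard error 0.46, adjusted p 0.526), whereas Krt14, the keratin whose promoter drives the Cre, was at 2.04 (standard error 0.44, adjusted p 0.0507). Postn was called higher, with 57 and 19 counts (cKO) and 7 and 11 counts (control) (log2 fold change 2.61, standard error 0.53, adjusted p 0.0331). A list of 20 proliferation genes had 5 tested and 0 called (0.848% of all genes tested). All 5 had positive fold changes, where 49.6% of all tested genes were negative. The list summed to 837.0 and 944.0 CPM in cKO and 651.0 and 568.4 CPM in control.

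**Figure D4:**
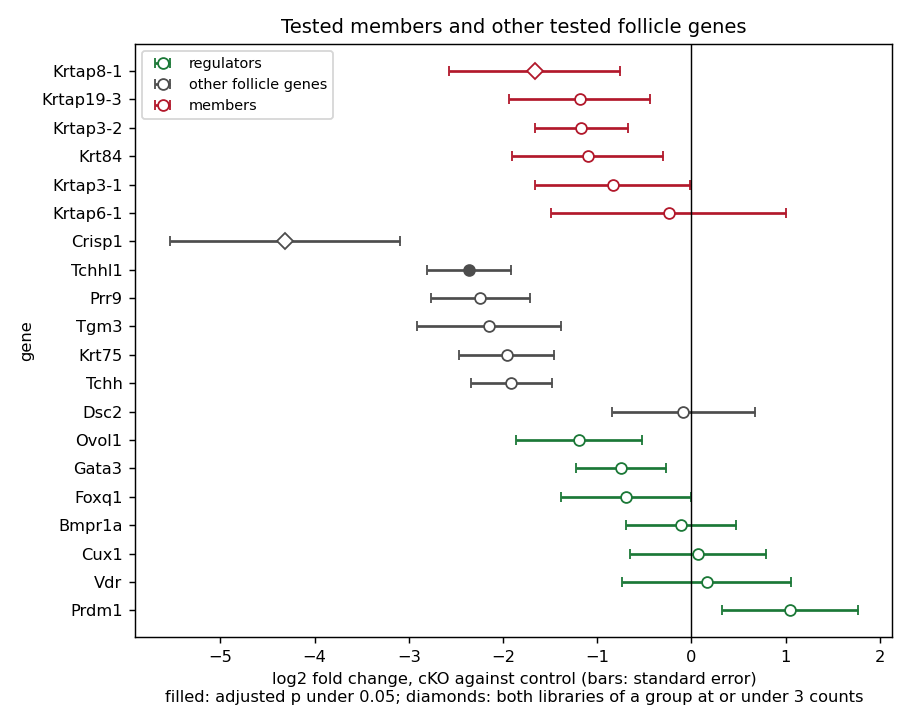
Log2 fold changes of cKO against control (horizontal axis, bars are standard errors of the edgeR fit) for the 6 tested members, the 7 tested genes of the other structural and companion layer lists and the 7 tested regulators. Filled symbols passed an adjusted p of 0.05, and diamonds mark genes with both libraries of a group at or under 3 counts, whose fitted value is no measure of size. Tchhl1 is the only filled symbol, and the members lie nearer to 0 than most of the other structural genes.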

How the data were processed

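RNA of separated epidermis was sequenced from the 3' end (QIAseq UPX 3' kit, per the labels) in 2 cKO and 2 control libraries. The authors deposited 1 table of raw counts per gene, without normalisation. Per the submitters' processing notes, Trim Galore 0.6.7, Trimmomatic 0.39, cutadapt 3.7, STAR 2.7.10a, featureCounts 2.0.1 and GRCm39 were used. Molecular identifiers, strand and multi-mapping settings are not given in the sources used here. Reads of near-identical copies could be dropped: of 23 members with 10 or more counts, 10 have a transcript at least 90% identical over 100 bases in another gene and 6 one at 95% (blastn 2.17.0, GENCODE M21).

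Genes were filtered with filterByExpr (minimum count 10, minimum total 15), which left 4243 genes, and scaled with TMM. They were tested with edgeR 4.0.16 (R 4.3.3) glmQLFit and glmQLFTest, genotype as the only term, with Benjamini-Hochberg adjustment over all 4243 genes. The standard error is the absolute log2 fold change over the square root of F. The fit was tested on simulated data. Sums per subfamily are counts, shares with Wilson intervals, or mean CPM, with no test. Members with at least 10 counts are named. In other lists, up to 3 tested genes with the largest change could be named, and Tchh, Krt75, Hoxc13, Foxn1 and Lef1; none was named of the muscle and proliferation lists. Krt10, Krt15, Krt17 and the genes outside the members printed at or near 0 were chosen after their values were seen. The Krtap classes were set after the counts were seen, and members and lists were chosen with earlier results of these data known. Alternatives were other scalings and filters, DESeq2 1.42.0, limma-voom 3.58.1, a replicate block and each library left out. 0 per-sample columns were left unused.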

Additional observations from a re-analysis of the deposited data

How the results depend on the processing

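No member was called lower in any of the 16 alternative fits, and 1 was called higher, without cKO replicate 1 (0 to 1 when each library was left out). The number of members tested was 54 with no count filter, 21 under a 10 CPM minimum and 8 to 13 when each library was left out. Genes called higher in cKO numbered 28, and 49 with no count filter, 16 with the replicate block, 12 with limma-voom, 43 at an adjusted p under 0.1 and 34 to 59 when each library was left out. Genes called lower numbered 8, and 15 with library totals, 26 with no count filter, 15 under a 10 CPM minimum, 1 with the replicate block, 3 with limma-voom, 17 at 0.1 and 8 to 34 when each library was left out. The replicate number is only a shared number in the labels, and the deviations of same-numbered libraries had a correlation of -0.20 across genes. With that block the lowest member adjusted p was 0.910 (Krtap3-2), and Tchhl1 (0.173), Tchh (0.352) and Prr9 (0.281) were not called. A block with crossed numbers, added after seeing the data, gave 90 higher and 57 lower. Fold changes turned positive for Krt84 (from -1.82 to 0.20 when each library was left out, positive without control replicate 2), Krtap3-1 (-2.09 to 0.10, positive without cKO replicate 1) and Krtap6-1 (-6.35 to 1.08, positive without cKO replicate 1, and 0.0377 with DESeq2), and the cause was not tested. The pooled ratios of the 3 subfamilies moved by less than the replicate spread in the 10 alternatives run for each, a spread so wide with 2 libraries that signs still changed, as given above. Depth limits single genes most in cKO replicate 2.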
